A study of Homo sapiens with 4 samples.

Results

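The 358 regions described here are stretches of chromatin that lay between genes and carried a BCL6 peak in both of 2 CUT&RUN libraries. Peaks of both lists that overlapped by 1 bp or more were merged, and a merged region was kept if it held a peak of each list. Its midpoint had to lie outside every protein-coding gene and more than 1 kb from every end of one. The lists merged into 7371 regions on chromosomes 1 to 22 and X, of which 1311 (17.8%) were in both lists, and 358 of those 1311 lay between genes. Another 442 shared regions lay within 1 kb of a gene end and 511 lay inside a gene. The members were thus chosen by the peak calls of both lists, and the strength of each peak is given as a description.

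CUT&RUN uses an antibody to bring a nuclease to a chromatin protein, and the DNA cut free around it is sequenced. The libraries were made from nuclei of SUDHL5, an established line of diffuse large B-cell lymphoma, a cancer of mature B cells. By the labels there are 2 biological replicates for BCL6 and 2 for normal rabbit IgG, with no treatment, genetic change or time point named. The IgG signal was not analysed here, and no region was compared with it here. Whether the authors' peak calling used a control is not given in the sources used here.

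BCL6 is a zinc finger repressor that germinal centre B cells need and that many diffuse large B-cell lymphomas keep expressing. It binds DNA through its zinc fingers and recruits the SMRT, NCOR and BCOR co-repressors, which bring histone deacetylase activity, through its BTB domain. Regulatory DNA between genes includes enhancers and the promoters of non-coding RNAs, and the gene it controls need not be the nearest one.

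No genome sequence was used here, so bases can be shown only where a member covered an annotated gene start. The RefSeq table (GRCh38.p14) gives windows of 250 bases before to 50 after a start, and 20 members covered the start of 23 of them. The following 4 are shown 5′ to 3′ on the strand of their gene, because they hold the start in the region with the highest pileup (BCL6), the start in the strongest member that covered one (LOC124902986), and the other matches to a BCL6-like pattern. Capitals mark matches to TTCNNNGAA, where N is any base, a pattern that reads the same on both strands and covers the core of the site known for BCL6 and STAT proteins. The windows are chr3:187745419-187745718 on the minus strand for BCL6, chr12:94101363-94101662 on the plus strand for LOC124902986, chr5:43019967-43020266 on the plus strand for LOC105374748 and chr4:184265728-184266027 on the plus strand for LOC105377584.
BCL6: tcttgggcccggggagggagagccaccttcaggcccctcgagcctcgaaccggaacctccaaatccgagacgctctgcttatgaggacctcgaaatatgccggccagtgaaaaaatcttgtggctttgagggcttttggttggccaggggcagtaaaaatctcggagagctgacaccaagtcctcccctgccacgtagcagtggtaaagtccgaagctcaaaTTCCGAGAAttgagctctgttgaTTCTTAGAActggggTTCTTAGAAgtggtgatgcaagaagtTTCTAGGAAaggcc
LOC124902986: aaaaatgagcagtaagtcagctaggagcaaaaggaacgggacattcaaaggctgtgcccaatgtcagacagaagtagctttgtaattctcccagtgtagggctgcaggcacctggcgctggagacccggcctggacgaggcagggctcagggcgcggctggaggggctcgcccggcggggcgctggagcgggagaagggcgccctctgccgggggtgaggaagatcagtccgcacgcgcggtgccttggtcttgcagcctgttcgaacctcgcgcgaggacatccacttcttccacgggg
LOC105374748: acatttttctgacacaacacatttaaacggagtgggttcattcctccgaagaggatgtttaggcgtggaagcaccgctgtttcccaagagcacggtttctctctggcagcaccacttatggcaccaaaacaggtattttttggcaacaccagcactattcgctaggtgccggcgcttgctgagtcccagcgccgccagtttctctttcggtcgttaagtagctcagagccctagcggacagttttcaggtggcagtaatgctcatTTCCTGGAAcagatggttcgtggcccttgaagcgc
LOC105377584: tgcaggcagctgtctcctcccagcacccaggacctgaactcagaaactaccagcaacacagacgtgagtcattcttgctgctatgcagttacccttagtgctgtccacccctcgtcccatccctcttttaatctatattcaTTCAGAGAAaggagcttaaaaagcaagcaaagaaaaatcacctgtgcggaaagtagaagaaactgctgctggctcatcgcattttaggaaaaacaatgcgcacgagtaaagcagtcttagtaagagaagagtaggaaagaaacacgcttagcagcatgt
The BCL6 window held 4 matches in its last stretch, around and after the start, and the summit of the region lay 132 bp upstream of that start. The windows of LOC105374748 and LOC105377584 held 1 match each, and that of LOC124902986 held none. In all, 3 of the 23 windows (13.0%) held the pattern, against 7.66% of 34961 promoter windows. The stricter pattern TTCCTAGAA was in the BCL6 window only among the 23, and in 0.369% of all windows. TTCCTNGAA, which includes it, was in 2 of the 23 and in 1.55% of all windows. The median GC content of the 23 windows was 51.7%, against 58.7% over all windows. A match describes letters and not a bound site, and a window without one says nothing of the rest of its region.

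One member covered the gene of a microRNA whose mature sequences are in the RefSeq table. They are printed with the seed, bases 2 to 8, in capitals, because the summit of the region lay 28 bp from the first and 65 bp from the second. Both lie on the minus strand, at chr5:88666902-88666924 and chr5:88666866-88666887.
hsa-miR-9-5p: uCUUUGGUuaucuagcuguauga
hsa-miR-9-3p: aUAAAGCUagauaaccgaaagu
The arms have different seeds. The region, chromosome 5 from 88666648 to 88667500, lay 50.0 kb from MEF2C, which encodes a transcription factor of germinal centre B cells. It had a fold enrichment of 5.38 in replicate 1 and 4.04 in replicate 2. The second member at a microRNA gene covered MIR4496 and is described with the non-coding genes.

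The replicate 1 list held 5237 peaks and the replicate 2 list 3536. Library sizes are unknown, and the pileup at a summit, the number of reads or fragments stacked there, was recovered from the deposited values. The median pileup was 23 in replicate 1 and 21 in replicate 2. Intervals given for shares are Wilson 95% intervals over regions, and those for pileups are exact Poisson 95% intervals. Both cover counting error only, and neighbouring regions are not independent of each other. With 2 libraries of 1 kind and no second condition, no difference between conditions could be tested.

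Regions between genes were found again more often than regions inside genes in both lists, while the order against gene ends differed between the lists. Of all 1905 merged regions between genes, 18.8% were in both lists, 1033 were in the replicate 1 list only and 514 in the replicate 2 list only. Of the replicate 1 regions between genes, 25.7% (23.5 to 28.1) were found again in replicate 2. The share was 30.2% (27.9 to 32.6) at gene ends and 21.8% (20.2 to 23.5) inside genes. Of the replicate 2 regions between genes, 41.1% (37.8 to 44.4) were found again in replicate 1. The share was 40.6% (37.7 to 43.5) at gene ends and 33.5% (31.2 to 35.9) inside genes, the latter with an interval below that of regions between genes. The share of regions that lay between genes was 27.3% (25 to 29.8) of the shared regions, 26.6% (25.2 to 28.0) of those of replicate 1 only and 23.6% (21.9 to 25.5) of those of replicate 2 only.

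The edge of the rule runs through a continuum. The members just beyond 1 kb lay 1033 bp from BEND3, 1041 bp from ADAMTSL4 and 1078 bp from H3C2, with folds of 5.75 and 3.12, 2.68 and 3.35, and 3.95 and 4.04 in replicates 1 and 2. The regions just within it lay 990 bp from EGR3, 988 bp from H2AC12 and 937 bp from TRIM41, with folds of 7.71 and 3.03, 10.4 and 10.7, and 3.22 and 4.05. For 5 members the summit lay within 1 kb of a gene end although the midpoint did not. Those 5 were nearest to SERBP1, BCL6, ANXA2R, H3C2 and CFAP251. The smallest overlap between the peaks of a member was 7 bp, found in 2 members, and 6 members overlapped by under 50 bp. Summits of both replicates lay a median of 99 bp apart, and within 200 bp in 223 members (62.3%).

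Members sat closer to genes than the space between genes offers. The distance from the midpoint to the nearest protein-coding gene end ranged from 1.03 kb to 1174 kb, with a median of 22 kb and quartiles of 7.43 and 61.7 kb. Over all bases between genes the median distance was 128 kb, and 103 kb when gaps over 5 Mb, such as those at centromeres, were left out. Regions found in 1 list only had medians of 23.6 kb (replicate 1) and 22.7 kb (replicate 2), so the distance was much the same for regions that recurred and those that did not. More than 100 kb from any gene end lay 58 members (16.2%, 12.7 to 20.4), against 54.8% of the bases. Over all gaps there were 0.705 members per Mb of sequence at 1 to 5 kb from an end, 0.367 at 10 to 50 kb and 0.102 at 100 to 500 kb. At 10 to 50 kb lay the most members, 139 (38.8%), where 23.9% of the bases of gaps of at most 5 Mb lie. How well reads can be placed in each stretch was not measured here.

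**Figure D1:**
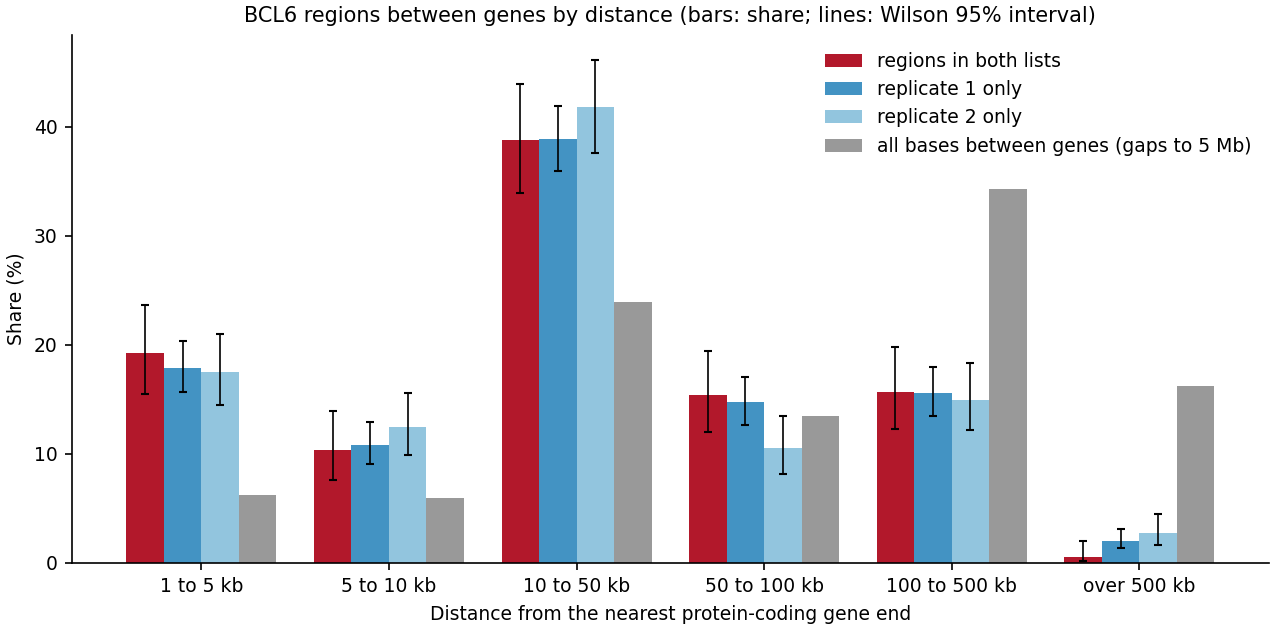
Share of BCL6 regions between genes (vertical axis, percent, with Wilson 95% intervals) in classes of distance from the nearest protein-coding gene end, for regions in both lists and in 1 list only, beside the share of all bases in gaps of at most 5 Mb. The 1 to 5 kb class holds 19.3% of the members and 6.20% of the bases, and the class beyond 500 kb holds 0.559% of the members and 16.2% of the bases.

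Distance and strength showed little rank relation among the members. Spearman's rho of the distance to the nearest gene end lay between -0.07 and -0.02 for the fold enrichment and the pileup of either replicate (n = 358 regions of the same libraries). The 5 members farthest from a gene end, all beyond 400 kb, had folds well inside the range of the rest. The farthest lay on chromosome 1 from 104932307 to 104932972, 1174 kb beyond the amylase gene AMY1C, with PRMT6, an arginine methyltransferase gene, on its other side. Its fold was 5.8 in replicate 1 and 4.47 in replicate 2. The next lay 879 kb from TRIML1 in the gap to FRG1 on chromosome 4, with folds of 3.93 and 3.63. A member in the gap from PTPRC, the gene of the CD45 phosphatase, to NR5A2 lay 468 kb from PTPRC, with folds of 2.82 and 4.42. In the gap from GATA3 to CELF2, 455 kb from CELF2, the folds of 2.99 and 7.11 differed more than 2-fold between the replicates. The fifth lay 431 kb from MYC in the gap to GSDMC, inside the lncRNA gene LOC124902020, with folds of 3.38 and 3.17.

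Few gaps held a member. Of 14335 gaps between protein-coding genes that were long enough, 252 held one, of which 191 held 1 member, 42 held 2 and 19 held 3 or more. Gaps with a member had a median length of 104 kb, against 26.8 kb over all gaps, and the 13 gaps over 5 Mb held none. A longer gap offers more room for a region, so this difference in length does not show a preference for long gaps. Chromosome 1 held most members (49) and chromosome 12 held 36, the highest density, at 0.526 per Mb of such sequence (0.368 to 0.728) against 0.227 over all chromosomes in gaps of at most 5 Mb. Chromosome 18 had 2 members (0.0452 per Mb), and none of the 27 shared regions of chromosome 19 lay between genes. The copy number of these chromosomes in the line was not measured here.

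Strand was known for 290 nearest genes. The nearest end was a gene start for 161 of the 290 members (55.5%, 49.8 to 61.1), against 51.4% of the bases between genes. Both flanking genes had a known strand for 245 members, and 36.7% of these (30.9 to 42.9) lay in a gap bordered by the starts of both genes, against 24.4% of the bases. The same share was 31.1% (27.8 to 34.5) for regions of replicate 1 only and 32.4% (27.7 to 37.5) for those of replicate 2 only, so the intervals of the 3 sets overlapped. Of the 90 members in gaps bordered by both starts, 18 lay in the single gap between BCL6 and LPP. The nearest end of those 18 was also a gene start, and neither share was computed without them.

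**Figure D2:**
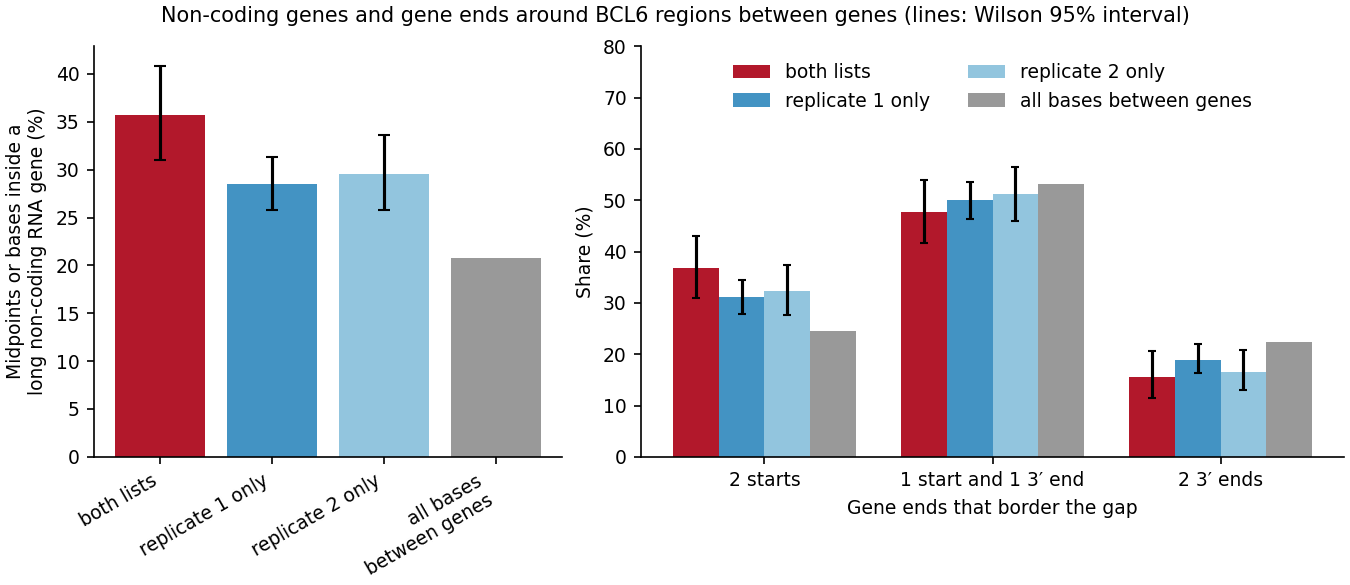
Left, share of midpoints inside a long non-coding RNA gene, and of all bases between genes that lie in one (percent). Right, share of regions and of bases in gaps bordered by 2 gene starts, by 1 start and 1 3′ end, or by 2 3′ ends (lines are Wilson 95% intervals). Members stand at 35.8% on the left, against 20.8% of the bases (22.7% in gaps of at most 5 Mb, not drawn). They stand at 36.7% for 2 starts on the right, against 24.4% of the bases. The members at 2 starts include 18 in the single gap between BCL6 and LPP.

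The strongest members lay from 2.27 to 303 kb from the nearest protein-coding gene end, and their flanking genes have varied roles. Strength here is the smaller of the fold enrichments of both replicates. The first, on chromosome 8 from 29554709 to 29556620, lay 205 kb from DUSP4, which encodes a phosphatase that switches off MAP kinases, and 507 kb from SARAF, a regulator of calcium entry. It reached a fold of 12.1 in replicate 1 and of 14.3 in replicate 2. Its pileups were 68 (52.8 to 86.2) and 55 (41.4 to 71.6). The second, at bases 45190518 to 45191462 of chromosome 17, was flanked by HEXIM2 at 21.0 kb, whose product inhibits the elongation kinase P-TEFb, and by FMNL1 at 30.9 kb, a formin gene of blood cells. Its folds were 10.9 and 15.7 with pileups of 74 (58.1 to 92.9) and 73 (57.2 to 91.8). Both regions were higher in fold in replicate 2, and their pileup intervals overlapped between replicates.

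The next, on chromosome 11 from 43007086 to 43010180, stood 303 kb from API5, an inhibitor of apoptosis, and 1549 kb from LRRC4C, with folds of 10.1 and 10.5. It rested on pileups of only 29 (19.4 to 41.7) and 25 (16.2 to 36.9), so its high fold comes with a low local background. The gap between MRPS18A, a mitochondrial ribosome gene, and VEGFA, the gene of a blood vessel growth factor, held 3 of the 12 strongest members. They lay 66.5, 63.5 and 55.4 kb from VEGFA and 15.9, 18.9 and 27.0 kb from MRPS18A. Their folds were 9.63, 8.59 and 7.11 in replicate 1 and 10.8, 13.3 and 10.6 in replicate 2, so all 3 were higher in fold in replicate 2. Their pileups ran from 37 to 55 in replicate 1 and from 29 to 49 in replicate 2. The middle one had pileups of 48 and 38 over local backgrounds of 4.70 and 1.92.

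The member on chromosome 12 from 94101202 to 94102792 lay 46.6 kb from PLXNC1, a semaphorin receptor gene, with folds of 9.12 and 9.34 and pileups of 35 and 43. On chromosome 2 from 136125671 to 136127484, 8.43 kb from CXCR4, the chemokine receptor of the germinal centre dark zone, the folds were 9.35 and 8.47 and the pileups 55 and 47. A member midway between PLEK (30.1 kb), which encodes the protein kinase C substrate pleckstrin, and FBXO48 (31.9 kb) had folds of 10.9 and 7.86, with pileups of 85 and 71. The member 47.1 kb from HHEX, a homeobox gene of blood development, had folds of 6.81 and 9.20 and pileups of 61 and 56. The other two of the 12 lay 2.27 kb from ZMYND11, with folds of 9.19 and 9.0, and 16.9 kb from the olfactory receptor gene OR10P1, with folds of 12.7 and 7.01. Together the 12 strongest members fell into 10 gaps, 3 of them overlapped a non-coding gene and 5 had another member within 50 kb.

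**Figure D3:**
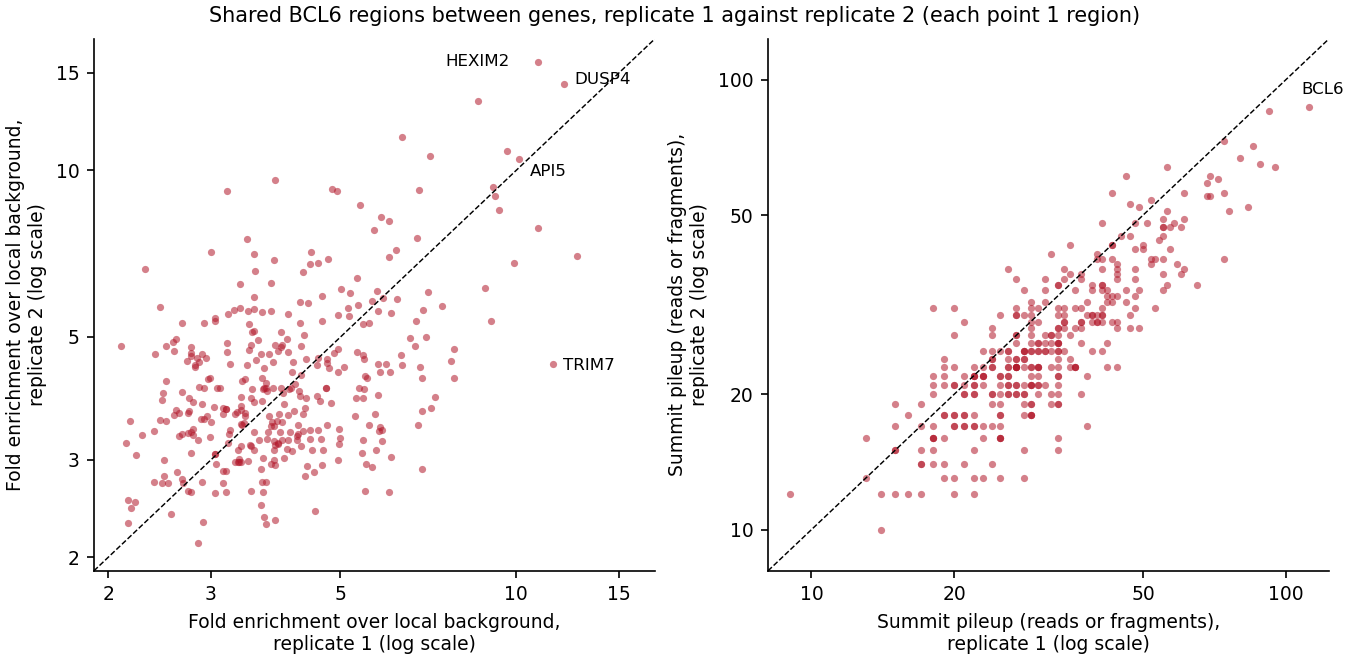
Fold enrichment (left) and summit pileup (right) of the 358 members in replicate 1 (horizontal) and replicate 2 (vertical), each point 1 region, with log axes and a dashed line of equal values. Folds scatter widely (rho 0.355) and pileups follow each other (rho 0.820), and the region at BCL6 has the highest pileups, 112 and 87.

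The replicates ranked the members alike by pileup and less so by fold. Spearman's rho between replicates across the 358 members was 0.820 for the pileup, 0.645 for the local background, 0.493 for −log10 q and 0.355 for the fold enrichment. These points share libraries, and the folds were cut at the authors' threshold in both lists. The fold was higher in replicate 2 in 189 members and in replicate 1 in 169. It differed more than 2-fold in 12 members, 7 higher in replicate 2 and 5 in replicate 1. A member 9.67 kb from TRIM7 had folds of 11.6 in replicate 1 and 4.48 in replicate 2. Another, in the gap from ZNF32 to the chemokine gene CXCL12, had folds of 3.86 and 9.60 in the opposite order.

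Members were about as strong as shared regions elsewhere. Among the members the median fold was 3.85 in replicate 1 (middle 50% from 3.19 to 4.97) and 3.96 in replicate 2 (3.28 to 4.87). Shared regions at gene ends had medians of 3.50 and 3.77, and those inside genes 3.77 and 3.84. The pileup ran in another order: its medians were 30 and 25 between genes, 35 and 30 at gene ends, and 28 and 23 inside genes. The local background was 6.88 and 5.64 between genes and 9.15 and 7.40 at gene ends, so gene ends combined higher pileups with a higher background. A fold of at least 5 in both replicates was found in 41 members (11.5%, 8.56 to 15.2), 11.1% of shared regions at gene ends and 8.81% of those inside genes. Against 27.3% of all shared regions, 9 of the 20 strongest of any position lay between genes (45.0%, 25.8 to 65.8), 14 of the 50 strongest (28.0%, 17.5 to 41.7) and 33 of the 100 strongest (33.0%, 24.6 to 42.7). All 3 intervals include that share.

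**Figure D4:**
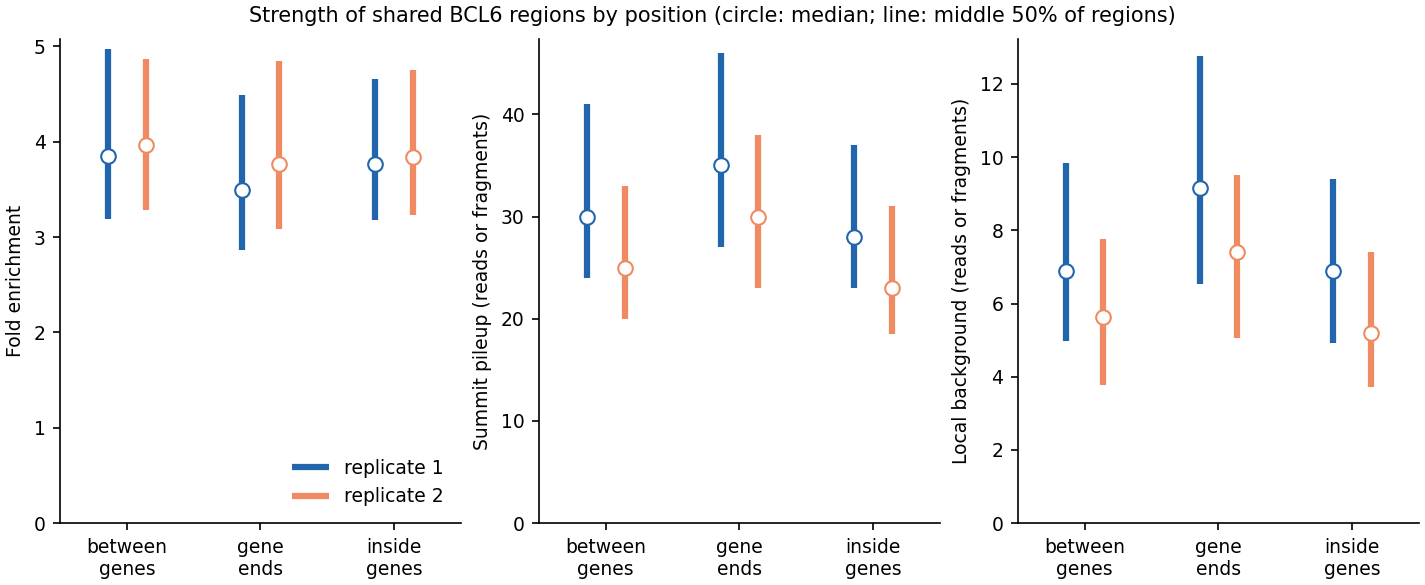
Fold enrichment, summit pileup and local background of shared BCL6 regions by position, as the median (circle) and the middle 50% of regions (line) for each replicate, with linear axes from 0. Median folds lie between 3.50 and 3.96 in all positions, while pileup and background are highest at gene ends.

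Many members came in groups. The next member lay a median of 149 kb away, with quartiles of 7.46 and 2718 kb. Within 50 kb of another member lay 149 of the 358 (41.6%, 36.6 to 46.8), within 10 kb 108 (30.2%) and within 200 kb 189 (52.8%). Joining neighbours within 50 kb gave 53 groups of 2 or more, of which 20 had at least 3 members. These 20 groups held 83 members. Counting shared regions of any position, 50.0% of the members had another one within 50 kb, against 30.3% of regions at gene ends and 41.5% of those inside genes. Without the gap between BCL6 and LPP, 131 of 340 members (38.5%) still had a neighbour within 50 kb.

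Grouped and lone members had similar medians. Median folds were 3.81 and 3.99 in groups of 3 or more, against 3.92 and 4.03 for the 209 members alone within 50 kb. Their median pileups were 32 and 28 against 29 and 24.

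The largest group lay upstream of BCL6 itself. The 408 kb gap between BCL6 and LPP, a gene of a cell adhesion protein, held 18 members. Over the 18, the fold had a median of 3.91 in replicate 1 (2.39 to 6.38) and 3.89 in replicate 2 (2.33 to 11.5). The pileup had a median of 38 (22 to 112) and 32.5 (20 to 87). Of the 18, 14 formed 1 group 99.1 kb long, on chromosome 3 from 187900065 to 187999166, whose members lay 154 to 199 kb from the nearest gene end. The strongest of those 14 lay 156 kb from BCL6, with folds of 4.75 and 6.91 and pileups of 46 and 61. A pair next to BCL6 and a pair 316 and 340 kb away made up the rest. From the first to the last member, the gap also held 14 regions of replicate 1 only and 9 of replicate 2 only.

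The first of the 18 is a border case of the rule. It ran from 187744913 to 187749446 and covered the BCL6 start, with its midpoint 1.71 kb from the gene and its summit 132 bp from it. It had the highest pileup of all members in each replicate, 112 (92.2 to 135) and 87 (69.7 to 107), with folds of 6.38 and 11.5. The 4 pattern matches printed above lie in this region. Its neighbour 5.22 kb from BCL6 was weaker, with folds of 3.61 and 4.93 and pileups of 31 and 25.

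The next largest groups had 6 members around CD69, 6 around ANXA2R and 5 around RMI2. Then came 4 groups of 4, of which the one among histone genes is described because it had the highest median of the smaller fold. The other groups of 4 lay between USP6NL and ECHDC3, TEX35 and RALGPS2, and KLHL42 and PTHLH. Around CD69, an early activation antigen that keeps lymphocytes in tissue, 6 members spanned 58.3 kb from CLECL1 to KLRF1, both lectin-like receptor genes. The strongest, 10.2 kb from CD69 and closer to CLECL1, had folds of 5.86 and 8.22 and pileups of 74 and 56. The one 4.56 kb from CD69 had 4.74 and 4.48 and pileups of 69 and 61. On chromosome 5, 6 members spanned 118 kb on both sides of ANXA2R, a gene for an annexin A2 receptor, with folds from 3.19 to 7.27 in replicate 1 and from 3.89 to 9.16 in replicate 2. The strongest of them, 19.5 kb from ANXA2R, had folds of 6.22 and 7.17, pileups of 48 and 48, and covered the LOC105374748 window printed above.

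On chromosome 16, 5 members spanned 66.3 kb from PRM1 across RMI2, a DNA repair gene, all inside the lncRNA gene LOC105371082. Their folds ran from 2.74 to 5.89 in replicate 1 and from 3.17 to 5.35 in replicate 2. In the histone cluster of chromosome 6, 4 members lay within 25.9 kb between H4C4 and H3C6, each 1.30 to 2.80 kb from a histone gene, with folds between 4.25 and 5.56 and between 3.80 and 5.99. In all, 5 members lay between 2 histone genes.

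The gap from CXCR4 to THSD7B held 6 members in 2 groups of 3, at 8.43 to 18.4 kb and at 89.0 to 121 kb from CXCR4. Their folds were 9.35, 3.42, 4.51, 3.51, 6.09 and 2.16 in replicate 1 and 8.47, 3.49, 2.43, 4.83, 5.52 and 2.54 in replicate 2, in order from CXCR4. The region closest to CXCR4 was the highest in both replicates. The gap beside PTPRC held 3 members at 39.6, 18.3 and 9.61 kb from the gene, with folds of 5.36, 2.45 and 3.06 and of 5.70, 3.54 and 2.95, again with the same region highest in both.

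**Figure D5:**
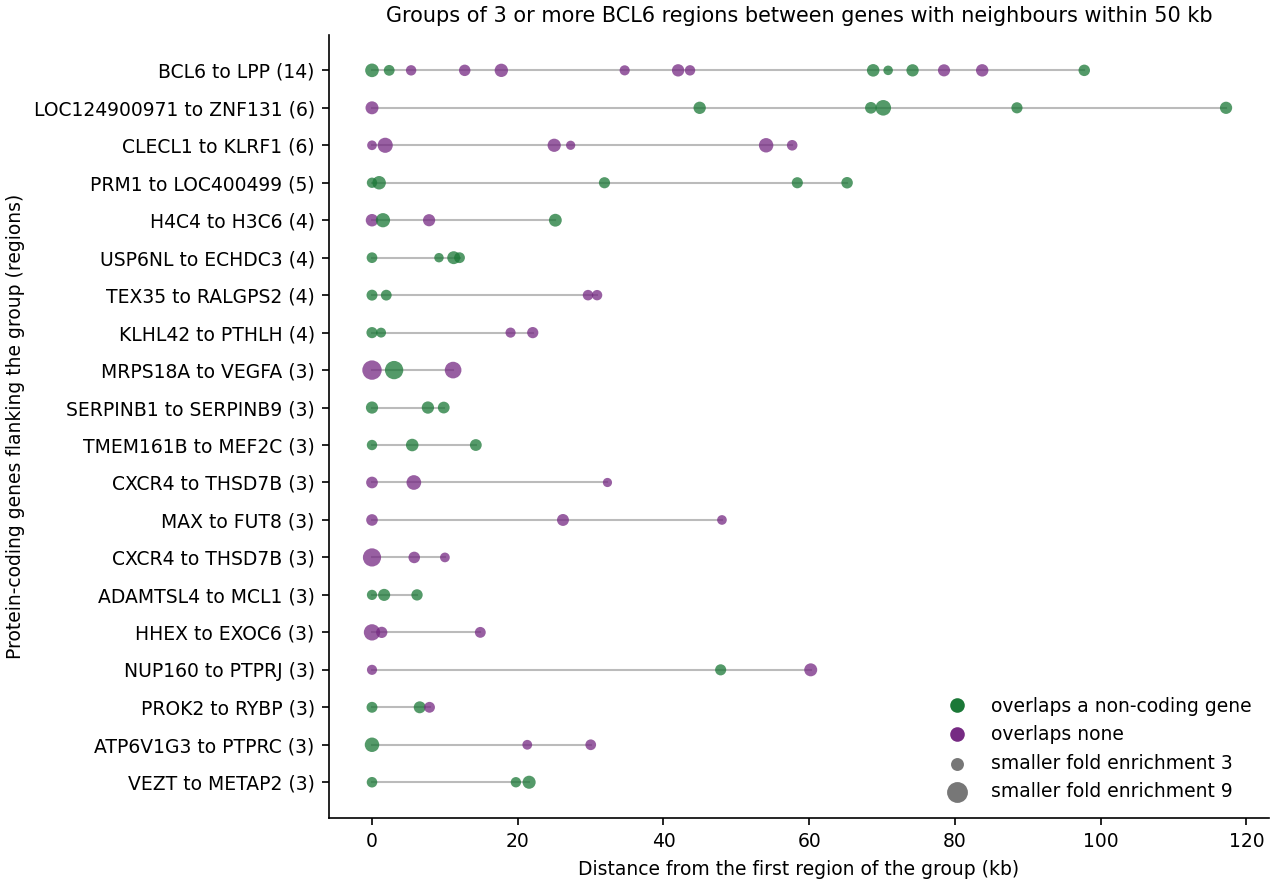
The 20 groups of 3 or more members whose neighbours lie within 50 kb, each on a line named by the protein-coding genes on both sides, with the number of members. Points are members at their distance from the first one of the group (kb), sized by the smaller fold and coloured by overlap with a non-coding gene. The group between BCL6 and LPP has 14 points, and the 3 points between MRPS18A and VEGFA, at smaller folds of 9.63, 8.59 and 7.11, have the highest median of any group.

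Non-coding genes were common at the members. Of the 358 members, 150 (41.9%, 36.9 to 47.1) overlapped 1 or more, against 35.4% of all regions between genes, 33.3% of those of replicate 1 only and 35.0% of those of replicate 2 only. Members were wider than single-list regions, with a median width of 875 bp against 405 and 378 bp, and the overlap was not adjusted for width. The midpoint, which does not depend on width, lay inside a lncRNA gene in 128 members (35.8%, 31.0 to 40.8), against 28.5% of replicate 1 only, 29.6% of replicate 2 only and 20.8% of the bases between genes. In gaps of at most 5 Mb, which held all members, the share of bases was 22.7%. The interval of the members lay above both shares of bases and overlapped the intervals of both single-list sets. The shares of bases were not matched to the members' distance from genes. By type, 135 members overlapped a lncRNA gene, 7 a pseudogene, 4 a transcribed pseudogene, 2 a microRNA gene and 2 a tRNA gene. Another 4 lay in antigen receptor loci, in IGK, in IGL and 2 in TRA, whose segments are not counted among protein-coding genes.

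Members with a non-coding gene had about the strength of those without, with median folds of 3.85 against 3.86 in replicate 1 and 3.99 against 3.92 in replicate 2. An annotated start fell in 20 members (5.59%, 3.65 to 8.47), against 2.32% of regions of replicate 1 only and 1.75% of those of replicate 2 only. This count too was not adjusted for width.

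The strongest members in a lncRNA gene were those beside HEXIM2, inside FMNL1-DT, and beside PLXNC1, at LOC124902986, both described above. Next came a region 2.11 kb from SELPLG, the gene of the P-selectin ligand of leukocytes, on chromosome 12 from 108635283 to 108636731. It overlapped LOC105369968 and MIR4496, with folds of 6.75 and 7.55 and high pileups of 92 and 85. The region at BCL6 overlapped BCL6-AS1, and that beside ANXA2R overlapped ANXA2R-OT1. A region 3.73 kb from TNFRSF13C, which encodes the BAFF receptor that B cells need to survive, overlapped LOC124905125 and had folds of 6.93 and 5.59. It lay closer to SHISA8, at 3.23 kb. One 4.53 kb from the nuclease gene DNASE1L3 overlapped LOC124909386, with folds of 5.8 and 5.58 on low pileups of 18 and 17. The last of the 8, at LINC01629 and 62.7 kb from IRF2BPL, had folds of 5.39 and 8.65 and pileups of 68 and 59.

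In a list of 39 non-coding RNA genes known from B cells, 38 were found and 6 were overlapped by a member, against 0.337% of 39124 non-coding genes. These were MIR29B2CHG, MIR4435-2HG, DLEU1, DLEU2, LINC-PINT and LINC00598. MIR29B2CHG and DLEU2 are host genes of microRNAs, of the miR-29 and miR-15/16 families, and DLEU1 and DLEU2 lie in a stretch of chromosome 13 often lost in B-cell leukaemia. Long genes offer more room for a region, and the counts were not adjusted for length. LINC-PINT held 3 members, with folds of 4.44, 3.38 and 2.47 in replicate 1 and of 7.13, 3.89 and 2.73 in replicate 2. The MIR29B2CHG region had folds of 2.92 and 5.30, and the regions at DLEU1 had 2.90 and 2.32 and 4.17 and 3.68.

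The protein-coding genes that flank a member on either side numbered 485 of 19974 (2.43%). The lists below are set beside that share, with no test over lists. It is a share of genes and takes no account of gap length, which is larger around some genes than others. The regions of replicate 1 only flanked 6.31% of genes and those of replicate 2 only 3.82%.

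Among genes that guide B cells through the germinal centre, several were flanked. Of 16 migration receptor and RGS genes, 5 were flanked (31.3%, 14.2 to 55.6): CXCR4, the cannabinoid receptor gene CNR2, and RGS1, RGS2 and RGS13, which encode brakes on G protein signalling by chemokine receptors. The CNR2 region, 18.1 kb away, had folds of 6.06 and 8.09 and pileups of 51 and 48. Regions 59.0 kb from RGS1 and 33.0 kb from RGS13 had folds of 6.35 and 4.64 and of 6.07 and 4.33, both higher in replicate 1. The latter lay closer to RGS1, at 23.1 kb. The RGS2 region, 1.30 kb away, was weaker at 3.05 and 2.61. RGS1, RGS13 and RGS2 are neighbours on chromosome 1, so 3 of the 5 genes share 1 stretch of genome. Of the same 16 genes, regions of replicate 1 only flanked 6 and those of replicate 2 only flanked 4.

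Of 22 germinal centre genes, 6 were flanked (27.3%, 13.2 to 48.2), namely BCL6, MEF2C, GNA13, RGS13, FOXO1 and EZH2. The strongest region per gene had folds of 3.15 and 2.87 for GNA13, a G protein gene of B cell confinement, 4.35 and 3.73 for FOXO1, a dark zone transcription factor, and 3.22 and 3.34 for EZH2, the H3K27 methyltransferase. These regions lay 43.6 kb from GNA13, 116 kb from FOXO1 and 56.6 kb from EZH2. Of 34 genes known as BCL6 targets, 6 were flanked (17.6%, 8.35 to 33.5), among them BCL6, CD69, ID2, CXCR4 and MYC. ID2, an inhibitor of E proteins, had a region 2.84 kb away with folds of 3.99 and 3.96. These lists overlap, as BCL6, CXCR4 and RGS13 each stand in 2 of them. Regions of replicate 1 only flanked 10 of the 22 germinal centre genes and 9 of the 34 targets. Regions of replicate 2 only flanked 8 and 6 of them.

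Signalling lists had a few members each. Of 25 cytokine signalling genes, 3 were flanked, among them SOCS1, a feedback inhibitor of cytokine receptors, whose region 29.6 kb away had folds of 4.57 and 4.59. Of 10 MAP kinase phosphatase genes, DUSP4 and DUSP5 were flanked, the DUSP5 region 84.0 kb away with folds of 5.79 and 3.93. Of 22 NF-kB and CD40 response genes only BIRC3 was flanked, by a region 1.22 kb away with folds of 3.58 and 4.54.

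Among 28 apoptosis genes, 3 were flanked: BIRC3, the survival gene MCL1 and the BH3-only gene BCL2L11. The strongest MCL1 region, 10.9 kb away with folds of 3.75 and 3.99, lay closer to ADAMTSL4, at 2.71 kb. The 1 BCL2L11 region, 51.0 kb away with folds of 3.85 and 4.84, lay closer to LOC124907867, at 3.11 kb. Among 23 genes of cell cycle arrest and the DNA damage checkpoint, 3 were flanked. The region 18.2 kb from BTG2, an antiproliferative gene, had folds of 7.07 and 6.02 with high pileups of 80 and 67. The regions beside CDKN2C, a CDK inhibitor gene, and GADD45A had folds of 2.59 and 4.72 and of 3.23 and 4.47, the latter 254 kb from GADD45A and next to SERBP1.

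Of 15 plasma cell genes only XBP1, which drives the secretory programme, was flanked, by a region 2.37 kb away with folds of 5.92 and 5.87 and pileups of 34 and 31. Of 24 B cell identity genes, the kinase genes BLK and LYN and the adaptor gene BLNK were flanked. Their strongest regions had folds of 3.19 and 2.63, 4.00 and 3.03, and 5.46 and 3.26. They lay 2.15 kb from BLK, 35.6 kb from LYN and 7.42 kb from BLNK. Of 23 co-repressor and acetyltransferase genes, HDAC7 and TBL1XR1, a subunit gene of the NCOR complex, were flanked. The TBL1XR1 region was 159 kb away, with folds of 5.77 and 6.06 and pileups of 56 and 64, and the HDAC7 region had 2.24 and 3.06.

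Lists of other cell types gave the comparison. No hepatocyte gene of 26 was flanked (upper limit 12.9%) and no myeloid gene of 16 (upper limit 19.4%). Of 18 T cell markers only GATA3 was flanked, by the region 1933 kb away that lies closer to CELF2. Of 26 neuron genes, GRIN1 and GRIN2B were flanked (7.69%, 2.14 to 24.1). That share was above those of the NF-kB and CD40 list (4.55%) and the plasma cell list (6.67%). It was below those of the other lists described above. The GRIN1 region, 9.80 kb away, had folds of 3.34 and 3.13. The GRIN2B region, 276 kb away in the gap to ATF7IP, had 3.70 and 2.36. With lists this short the intervals are wide, and no difference between lists was tested.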

How the data were processed

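CUT&RUN for BCL6 was analysed in 2 libraries of SUDHL5, and the 2 IgG libraries were not analysed here. The submitters' processing notes name the aligner Bowtie2 and the peak caller MACS2, along with cutadapt, FastQC, Picard, SAMtools, deepTools and bedtools, and build hg38, with order, settings and control not given in the sources used here. For each library the authors deposited 1 peak list in narrowPeak layout, with the fold enrichment (a ratio of the summit to the local background), −log10 p, −log10 q and a score that was not used. Since each library has its own deposited list, replicates were not pooled for peak calling.

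The whole-number summit pileup and the local background were solved from the deposited fold and −log10 p, within 0.001 for 5233 of 5237 peaks of replicate 1 and 3532 of 3536 of replicate 2. Of several peaks of 1 list in a region, the one with the highest −log10 q gave the values. Genes were the 19974 protein-coding and 39124 non-coding entries of a RefSeq table of GRCh38.p14, the assembly of hg38. Strand came from promoter windows and was known for 15812 protein-coding genes. The background of distances was every base between genes, counted exactly.

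Python 3.11.15, pandas 2.3.3, SciPy 1.17.1, statsmodels 0.14.6 and matplotlib 3.10.9 were used, and the recovery of pileups and the classing of positions were tested on simulated data. Members, gene lists and the naming rule were chosen with earlier results of these data known. The rule named the 12 members with the largest smaller fold, the 5 farthest from a gene, the 5 largest groups, members at microRNA genes, the 8 strongest at lncRNA genes, up to 3 per gene list, and 3 on each side of the 1 kb limit. A region that the rule names is not reported here. Other regions named, such as those of TRIM7, CXCL12, PTPRC and LINC-PINT, were chosen after their values were seen. Alternatives changed the overlap that counts as shared, the q threshold, the position used, the distance limit, the genes that bar a region and the lists required.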

Additional observations from a re-analysis of the deposited data

How the results depend on the processing

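Of 99 alternative values, 48 were classed as the same as the main value and 51 as moved. Medians of distance, fold and pileup were classed by the spread between replicates, and shares by the Wilson interval of the main share. Counts had no spread and were classed by their ratio to the main count. For example, a fall from 150 to 105 members at a non-coding gene, with summits within 200 bp, was classed as the same. A replicate left out gives no fold or pileup of its own. The number of members, 358, was 203 with a reciprocal overlap of at least 50%, 234 with summits within 200 bp, 136 and 58 with a −log10 q of at least 5 and 10, 202 when every annotated gene barred a region, and 886 to 1407 when 1 list alone was used (without replicate 1 and without replicate 2). In the same order, members at a non-coding gene were 87 (reciprocal), 62 and 24 (q), 1 (every gene barred) and 332 to 500 (1 list). Members with a neighbour within 50 kb were 63, 58, 40, 6, 60 and 445 to 807, and flanking genes were 315 (reciprocal), 216 and 103 (q), 311 (every gene barred) and 1067 to 1475 (1 list). The share with a neighbour was 24.8% with summits within 200 bp and 10.3% at a −log10 q of at least 10, against 41.6%, with neighbours counted only among the regions kept, so fewer regions leave fewer neighbours. The share with a non-coding gene stayed between 35.5% and 45.6% except where every gene barred a region.

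The share of shared regions between genes was 22% beyond 5 kb and 15.4% when every gene barred a region. The median distance was 20.9 kb with summits within 200 bp, 20.5 and 16.3 kb at the q limits, 34.7 kb beyond 5 kb, 19.2 kb when every gene barred, 23.5 kb at most with 1 list alone, and 21.1 kb without the gap between BCL6 and LPP, an alternative chosen after seeing the data. The share beyond 100 kb was 12.1% at a −log10 q of at least 10. Median folds in replicate 1 were 4.00 (reciprocal), 3.96 (summits), 4.77 and 5.95 (q) and 3.68 (its list alone), and in replicate 2 they were 4.22 (summits), 4.78 and 6.0 (q), 3.88 (beyond 5 kb) and 3.84 (its list alone). Median pileups were 43 and 54.5 in replicate 1 and 35.5 and 47 in replicate 2 at the q limits, and 23 and 20 with 1 list alone.

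Of the 12 strongest members, 10 were kept under reciprocal overlap, without the DUSP4 region, 11 beyond 5 kb, 9 when every gene barred, and 12 under the other settings. List counts are small: the germinal centre count fell from 6 to 4 under reciprocal overlap and to 3 and 1 at the q limits, the migration receptor count from 5 to 4, 4 and 2 in the same order, and the B cell identity count from 3 to 0 at both q limits. The hepatocyte count rose from 0 to 2 without replicate 1. No paired analysis was possible because only 1 group had values. Read depth is unknown, and no control signal was analysed here. Whether the deposited folds and q values already carry a control signal is not given in the sources used here.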
